A study of Mus musculus with 4 samples.

Results

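The comparison set the array labelled DM-WT, renal cortex of diabetic mice with intact ICAM-1, against the array labelled ND-WT, renal cortex of their nondiabetic controls. It used 2 of the 4 arrays of the study, and its members were all gene probes that gave a usable spot on both arrays. Of 10032 gene probes, 500 were left out, since the spots of columns 44 to 48 in the upper block read low on DM-WT. Of the other 9532 probes, those with a usable spot on both arrays gave 5826 genes measured on both, 5360 of them with a symbol.

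All mice were male C57BL/6J animals. ND-WT mice carried both ICAM-1 alleles (ICAM-1+/+) and received citrate buffer (pH 4.5) alone by intraperitoneal injection at 8 weeks of age. DM-WT mice had the same genotype and age and received streptozotocin at 200 mg/kg in that buffer, and only animals with a blood glucose above 16 mmol/L were used. Cortex was taken 12 weeks later, at 20 weeks of age. The other pair, ND-KO and DM-KO, had the same treatments in mice lacking ICAM-1 (ICAM-1-/-), and shares no array with the wild-type pair. Each group is given as 5 mice, yet has 1 array, and whether its RNA was pooled or came from 1 mouse is not given in the labels. There was thus no replicate, differences are described by size, and no p-value is given. Icam1 itself was not analysed here.

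Streptozotocin destroys the insulin-producing beta cells of the pancreas, so the kidney is exposed to high blood glucose, low insulin and a raised supply of fatty acids. The drug also alkylates DNA, and the renal tubule can take it up. Proximal tubules make up most of the cortex, reabsorb glucose, burn fatty acids and, in the male mouse, express a set of androgen-dependent enzymes. ICAM-1 sits on endothelium and holds leukocytes so that they can cross it, and macrophages entering the kidney are a known feature of diabetic nephropathy. Interferon-induced genes are switched on through STAT and IRF factors that bind a short element with repeated GAAA letters, the interferon-stimulated response element (ISRE).

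The 5 genes below are the interferon-list genes with the largest differences that held an ISRE-like match upstream of their start, and B2m is the MHC class I light chain. They are shown because interferon-induced genes were the list with the highest median difference between DM-WT and ND-WT. The letters searched were GAAANNGAAA and, for the other strand, TTTCNNTTTC, in the 250 bases before each RefSeq gene start (GRCm38.p6). Each line is written 5′ to 3′ on the strand of the gene with 15 bases on either side. It shows 1 match per gene, marked by capitals. Ifit1, Ifit3 and Gbp3 each held a further match, at 85, 122 and 39 bases before the start, which is not marked. That of Gbp3 overlaps the match shown.
Ifit1, chr19:34640770-34640809, plus strand, match 104 bases before the start: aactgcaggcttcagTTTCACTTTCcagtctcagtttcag
Cxcl10, chr5:92349078-92349117, minus strand, 213 bases before: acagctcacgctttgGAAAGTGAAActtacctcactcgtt
Ifit3, chr19:34583358-34583397, plus strand, 156 bases before: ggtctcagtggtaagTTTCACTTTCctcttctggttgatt
Tgtp1, chr11:48992299-48992338, minus strand, 77 bases before: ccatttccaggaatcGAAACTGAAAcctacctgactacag
Gbp3, chr3:142559984-142560023, plus strand, 45 bases before: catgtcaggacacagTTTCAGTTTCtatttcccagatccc
B2m, chr2:122147533-122147572, plus strand, 139 bases before: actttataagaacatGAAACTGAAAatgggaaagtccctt
Over all measured genes with a promoter in the table, 152 of 4317 (3.52%) held the letters, and of all 27025 promoters held there 936 (3.46%) did. Of the genes at least 2-fold higher on DM-WT, 11 of 53 (20.8%) held them, and of those at least 2-fold lower, 0 of 15. At 1.5-fold the counts were 18 of 171 (10.5%) for higher genes and 1 of 111 (0.901%) for lower genes. Of the interferon list, 10 of 24 (41.7%) held the letters, and of the genes at least 1.5-fold higher that are not on that list, 9 of 153 (5.88%). These 9 were Plk2, Sgk1, Ctss, B2m, D17H6S56E-5, Serpinb6a, Tcirg1, Serpinb9 and Oas1c. Plk2 and Sgk1, with the largest differences of the 9, are treated below with p53 targets and with corticosteroid-induced genes. A gene off the list can still be induced by interferon, which was not tested for these 9. A match is a run of letters and was not shown to be a bound site.

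Levels are given in intensity units, the spot mean minus the local background, brought to 1 common distribution over the 4 arrays, and differences are DM-WT minus ND-WT on the log2 scale unless another pair is named. Where 4 levels are listed for a gene, the order is ND-WT, DM-WT, ND-KO, DM-KO. Usable spots made up 64.8% of gene probes on ND-WT and 62.8% on DM-WT. Repeat spots of bacterial control transcripts gave an SD of 0.173 on the log2 scale for a difference between single spots, so that 2 such SDs make 1.27-fold. This covers spot error only, and not the spread between mice. Bacterial controls added to the RNA stood on DM-WT at 0.556 of their ND-WT level, while this ratio was 1.27 for ND-KO and 1.22 for DM-KO, and the part of this in the results was not tested. Shares of probes past 1.5-fold were also taken by position outside the left-out columns. In the adjoining columns of the upper block 3.50% were lower and 2.55% higher. Columns 44 to 48 of the lower block had 2.80% lower and 2.10% higher. In columns 1 to 5 the shares were 2.80% lower and 5.13% higher, and elsewhere 2.46% and 4.25%. Proximal tubule markers (17 of 17 above background on both arrays), thick limb and distal tubule markers (10 of 10) and collecting duct markers (15 of 16) were present, as were podocyte markers (7 of 11).

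At least 2-fold higher on DM-WT were 75 of 5826 genes (1.29%), and at least 2-fold lower were 20 (0.343%). At 1.5-fold the counts were 244 higher (4.19%) and 148 lower (2.54%). Of all genes 2700 were higher and 3125 lower, and the counts of list members are to be read against these shares. With normexp background correction and an offset of 50, which compresses dim genes, the 2-fold counts were 26 higher and 2 lower, and they were the same with no background subtraction. With the arrays scaled by their medians in place of quantiles, the 1.5-fold counts were 213 and 213. The median of all genes was -0.02, 90% of them lay between -0.47 and 0.53, and 93.3% lay within 1.5-fold. In the tenth of genes with the lowest levels the robust SD of the differences was 0.34, and in the tenth with the highest it was 0.17. A 2-fold difference of a dim gene therefore stands less far from the bulk than that of a bright gene.

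**Figure D1:**
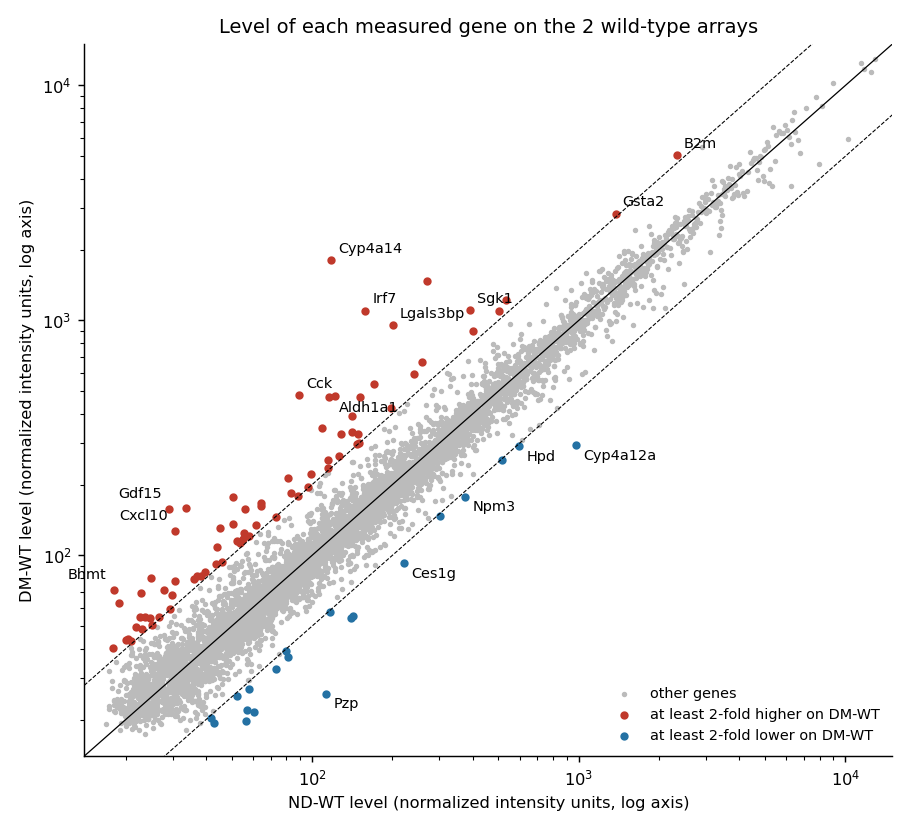
Level of each of the 5826 measured genes on ND-WT (horizontal, log axis) against DM-WT (vertical, log axis), both in normalized intensity units. The solid line marks equal levels and the dashed lines 2-fold; the 75 red genes lie at least 2-fold above and the 20 blue genes at least 2-fold below, with Cyp4a14 (117 and 1811) farthest above and Pzp (113 and 25.8) farthest below.

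Interferon-induced genes were higher on DM-WT as a group. Of 41 members with a probe, 30 were measured on both arrays. Of these 29 were higher and 1 lower, 24 were at least 1.5-fold higher against 4.19% of all genes, and 15 at least 2-fold higher against 1.29%. Their median difference was 0.99, beside -0.02 for all genes. Without ICAM-1, 30 of 32 measured members were higher and 6 at least 1.5-fold, against 1.84% of all genes, with a median of 0.28. Irf7, the transcription factor that amplifies the type I interferon response, stood at 158 on ND-WT and 1101 on DM-WT, a 6.96-fold difference. Without ICAM-1 it stood at 174 in controls and 286 with diabetes, so DM-WT was the highest of the 4 arrays. Ifit1, which binds RNA lacking the host's cap methylation, stood at 33.7 on ND-WT and 159.8 on DM-WT. Ifit3, a partner of Ifit1, stood at 170.1 and 536, and Ifit2, another member of that family, at 27.8 and 71.6. Ifit2 was the member of the trio that also differed at least 2-fold without ICAM-1, with 27.9 in controls and 58.7 with diabetes. The 3 Ifit genes lie close together on chromosome 19. Genes called neighbours here lie within 100 kb of each other, and other genes can lie between them.

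The same list holds chemokines, GTPases and antiviral proteins. Cxcl10, a chemokine that draws activated T cells, stood at 30.7 on ND-WT and 128 on DM-WT, and its neighbour Cxcl9, with the same receptor, at 17.9 and 40.4. Iigp1 and Tgtp1, immunity-related GTPases that act against intracellular parasites, were 2.70-fold and 2.59-fold higher. Gbp3, a guanylate-binding GTPase, stood at 44.1 and 109.0. Without ICAM-1 the differences of these GTPases were 0.08 for Iigp1, 0.33 for Tgtp1 and 0.16 for Gbp3. In that pair Ifit1 and Cxcl10 differed by 0.81 and 0.71. Further genes of antiviral defence were among the highest, Oasl2, an oligoadenylate synthase-like protein, at 3.20-fold and Rtp4, a receptor chaperone induced by interferon, at 3.52-fold. Lgals3bp, a secreted glycoprotein that binds galectins, stood at 201, 954, 219.5 and 357. Some interferon genes gave a bound only. Ubd, a ubiquitin-like modifier induced by interferon gamma, was not above background on ND-WT and was at least 7.63-fold higher at 126 on DM-WT. Sp100, a nuclear body protein, was higher by at least 2.05-fold.

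Antigen presentation genes lay above the bulk by smaller amounts. For MHC class I and antigen processing, 12 of 14 measured genes were higher and 6 were at least 1.5-fold higher, with a median of 0.41. B2m stood at 2332, 5066, 2619 and 2618, so DM-WT alone was apart. The inducible proteasome subunits Psmb8, Psmb10 and Psmb9, which replace the constitutive catalytic subunits and alter the peptides made, differed by 0.97, 0.68 and 0.44. Among all 30 measured proteasome subunits 11 were higher and 19 lower, and the median was -0.05. Constitutive Psmb1 stood at 2003 and 2098 and Psmb6 at 1527 on both arrays. Psmb6 had a difference of -0.17 when arrays were scaled by their medians. Tap2, which carries peptides into the endoplasmic reticulum, and Tapbp, which loads them, differed by 0.67 and 0.60. Of MHC class II, Cd74, the invariant chain, stood at 322 and 596, H2-Eb1 at 326 and 593 and H2-Aa at 554 and 969.99. H2-Oa, a modulator of class II loading, was the measured class II gene that was lower, at -0.15. With spots not above background counted too, the class II median moved from 0.84 to 0.07.

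Myeloid markers were higher beside these genes. Of 28 macrophage and monocyte markers with a probe, 19 were measured, 17 were higher and 8 at least 1.5-fold higher, with a median of 0.58. C1qa, C1qb and C1qc, the chains of complement C1q that resident macrophages make, stood at 115 and 254, 148 and 299, and 74.6 and 132. Ctss, a lysosomal protease of antigen-presenting cells, stood at 149 and 328, and Lyz2, lysozyme, at 126 and 265. Fcgr3, an activating Fc receptor, differed by 0.78 while Fcgr2b, the inhibitory receptor, differed by -0.63. These Fc receptor genes are neighbours on chromosome 1, and both were at least 1.5-fold apart in opposite directions. Several defining markers were not above background on either wild-type array, namely Adgre1 (F4/80), Itgam and Cybb. Fcgr1 and Msr1 were above background on DM-WT only, by at least 1.94-fold and 1.60-fold. Without ICAM-1, 13 of 18 markers were higher and the median was 0.21. The summed level of the measured markers was 4770 on ND-WT and 5552 on DM-WT, and over the 18 measured on all arrays it was 4837 for ND-KO and 4797 for DM-KO. Most of each sum came from Cyba, an oxidase subunit, which stood at 3457, 3435, 3457 and 3139. Without Cyba, left out after its values were seen, the sums were 1312 and 2117 in the wild-type pair and 1379 and 1657 in the other. In bulk tissue more cells of a type and more RNA per cell cannot be told apart.

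Most lymphocyte markers gave little signal. Of 28 with a probe, 9 were measured, with 5 higher, 4 lower and a median of 0.18. Cd3e, Cd8a, Cd79b and Ms4a1 were not above background on either array. Gzma, a granzyme and the brightest measured member, stood at 750 and 850, with 704 and 802 without ICAM-1. Ighm, the immunoglobulin mu chain, was at least 7.08-fold higher on DM-WT, at 117, and without ICAM-1 stood at 24.8 in controls and 40.4 with diabetes. Jchain, which joins immunoglobulin chains, stood at 97.4 and 150.3, whereas Cd79a, part of the B cell receptor, stood at 180.2 and 109.0. Of 8 neutrophil markers 7 were not above background, including S100a8, Mpo and Elane, and Ngp stood at 22.3 and 25.3. Ccl5, a T cell chemokine, was above background on DM-WT only, by at least 2.49-fold, and Ccl2, the chief monocyte chemokine, stood at 50.4 and 78.9. Over 26 measured chemokines, cytokines and adhesion genes, 17 were higher, 3 at least 1.5-fold, with a median of 0.16. Among the 3 were Cxcl10 and Cxcl9, which are also counted on the interferon list. The lower ones included Ccl28 at -0.97, Il15 at -0.51 and Il18 at -0.37, and the higher ones Mif at 0.42 and Cxcl16 at 0.38. The part of these cells in the interferon and antigen presentation values was not tested.

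Targets of p53, the factor that answers DNA damage, were higher in 19 of 21 measured cases, with 11 past 1.5-fold (4.19% of all genes were) and 5 past 2-fold (1.29%). Their median was 0.59 in the wild-type pair and 0.24 in the pair without ICAM-1. Cdkn1a, the p53-induced inhibitor of cell cycle kinases, was not above background on ND-WT (9.08) or ND-KO (8.06), and stood at 229.8 on DM-WT and 134 on DM-KO, and was at least 13.9-fold higher in the wild-type pair. Phlda3, a p53-induced repressor of AKT, showed the same layout, with 67.7 on DM-WT, 55.1 on DM-KO and no signal above background on either control array. Gdf15, a stress cytokine that lowers appetite, stood at 29.2, 158, 38.4 and 111. Ccng1, a cyclin induced by p53, stood at 403, 903, 556 and 951, and Zmat3, an RNA-binding p53 target, at 212, 402, 212 and 370.4. Plk2, a polo-like kinase, stood at 45.3, 131, 63.3 and 116. Both diabetic arrays were thus above both controls for these genes. Mdm2, the ligase that degrades p53, stood at 20.9 and 40.2, Bax, a death effector, at 172 and 255, and Aen, a nuclease, at 49.8 and 89.0. Pmaip1 (Noxa), a BH3-only death factor, stood at 128 and 329.6 in the wild-type pair, and at 82.4 and 105 without ICAM-1. Mgmt, which repairs alkylated guanine, stood at 29.9 and 67.6, and was likewise higher without ICAM-1, at 31.0 and 71.3.

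Genes of tubule injury and repair were higher in 15 of 16 measured cases, 8 past 1.5-fold, and their median was 0.59. Gdf15, counted above among p53 targets, is also on this list and had its largest measured difference, 2.44. Tnfrsf12a, the receptor of the cytokine TWEAK, stood at 98.9 and 223, and clusterin (Clu), a secreted chaperone, at 304 and 501. Keratin 18 (Krt18) stood at 68.1 and 122, and S100a6, a calcium-binding protein of dividing cells, at 476 and 793. Krt18, S100a6 and Clu were also higher without ICAM-1, by 0.61, 0.80 and 0.57. Of 24 measured cell cycle genes 20 were higher, but 3 by at least 1.5-fold, and 17 were not above background on either array. Cdk1, the mitotic kinase, stood at 22.8 and 43.9, Ccnd1 (cyclin D1) at 39.7 and 62.1 and Pcna, the replication clamp, at 414 and 537. Birc5 (survivin) and Mcm5, a replication helicase subunit, were above background on DM-WT only, by at least 2.49-fold and 2.07-fold.

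**Figure D2:**
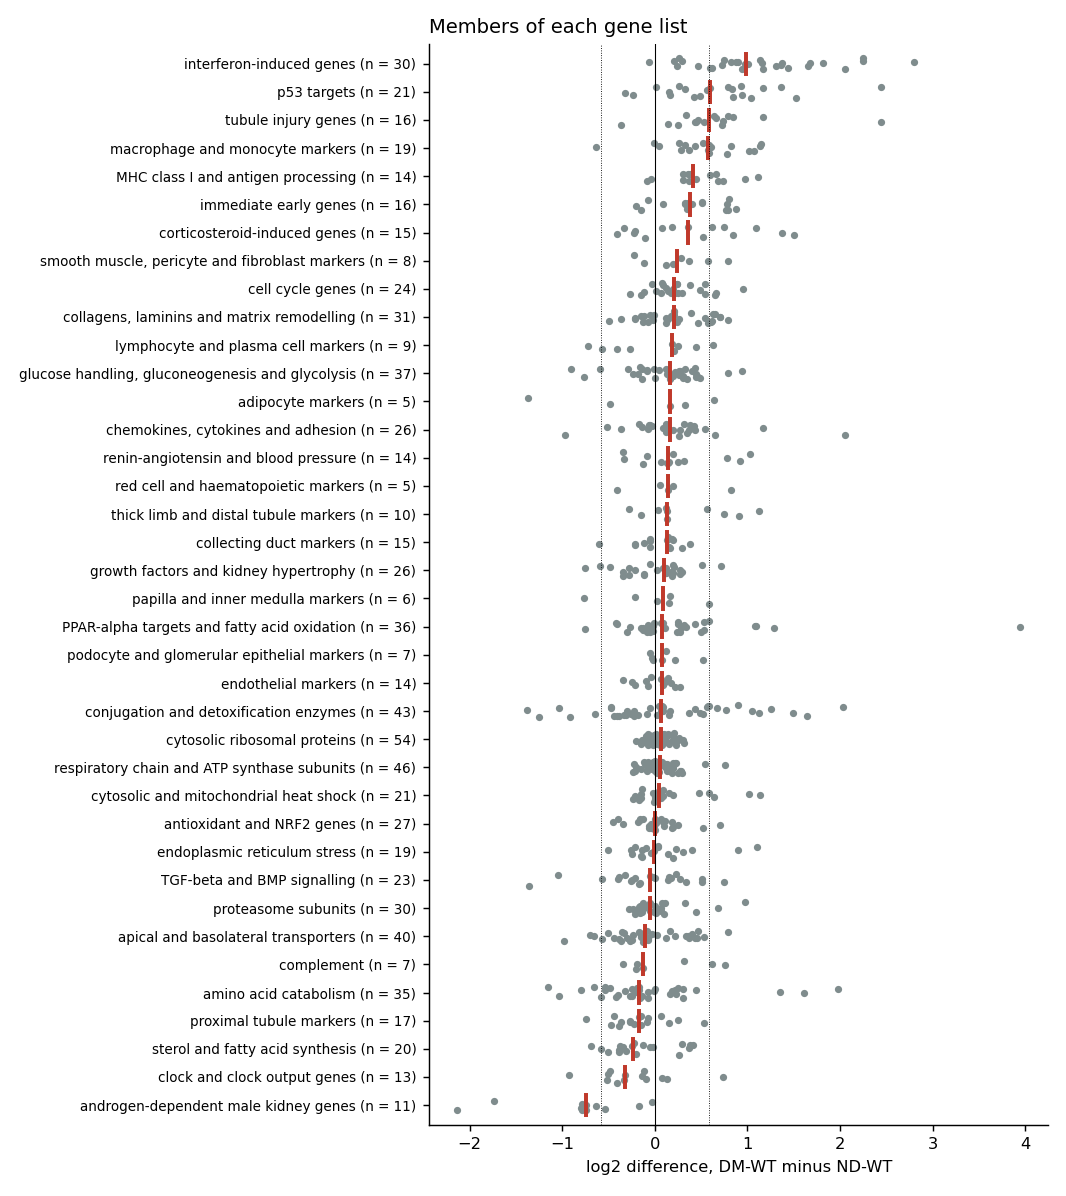
Log2 difference DM-WT minus ND-WT (horizontal) of the measured members of each of the 38 gene lists with at least 5 measured members; each grey point is 1 gene, red bars are list medians and dotted lines mark 1.5-fold. Interferon-induced genes have the highest median (0.99) and androgen-dependent male kidney genes the lowest (-0.75).

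Among genes above background on both arrays, the largest difference was that of a gene of lipid metabolism. Cyp4a14, a fatty acid omega-hydroxylase under control of PPAR-alpha, the fatty acid-sensing nuclear receptor, stood at 117 on ND-WT and 1811 on DM-WT, a 15.4-fold difference. Without ICAM-1 it stood at 314 in controls and 1416 with diabetes, so the diabetic arrays were near each other and the controls were not. The list of PPAR-alpha targets and fatty acid oxidation genes did not follow as a whole. The list mixes targets with general oxidation genes, so its median does not speak for the targets alone. Of its 36 measured genes 19 were higher and 17 lower, 5 at least 1.5-fold higher. The median was 0.08 (-0.01 with arrays scaled by their medians). Acot1, Acsl1, Acaa2, Vnn1 and Eci1 differed by 0.59, 0.54, 0.53, 0.50 and 0.43, and Bdh1 and Acads by -0.42 and -0.41. Pdk4, which holds back glucose oxidation, stood at 38.3 and 81.6, and Fabp1, a fatty acid carrier, differed by 1.08. Ucp2, a mitochondrial carrier, stood at 242 and 591. Acadm and Acadvl, dehydrogenases of beta-oxidation, differed by -0.13 and -0.03. Cd36, a fatty acid uptake protein, was at least 1.5-fold lower, at 1602 and 952. Hacl1, which shortens branched fatty acids in peroxisomes, stood at 534 and 1224.

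Conjugation and detoxification enzymes lay in both directions, with 10 of 43 at least 1.5-fold higher and 5 at least 1.5-fold lower. Aldh1a1, which oxidises retinaldehyde, stood at 115, 471, 90.0 and 413. Its neighbour and near relative Aldh1a7 stood at 141, 336, 101 and 347. Ephx1, the microsomal epoxide hydrolase, stood at 151, 472, 161 and 380.5, and Gsta2, an alpha-class glutathione transferase, at 1374, 2849, 1282 and 2759. For these 4 enzymes each diabetic array lay above both control arrays. Ltc4s, leukotriene C4 synthase, stood at 55.8 and 157, and Cyp24a1, which inactivates vitamin D, at 61.8 and 135. Ugt1a2, a UDP-glucuronosyltransferase, had the largest bound, at least 58.1-fold, with 958 on DM-WT, no signal above background on either control array and 122 on DM-KO. Cbr3, a carbonyl reductase, was higher by at least 2.79-fold, and its relative Cbr1 stood at 106 and 198. Lower were the carboxylesterases Ces1g, at 221 and 92.7, and Ces1e, at 271 and 144, which are neighbours on chromosome 8. Fmo5, a flavin monooxygenase, differed by -1.38, and Ugt8a, a ceramide galactosyltransferase, stood at 301 and 147. Antioxidant and NRF2 genes stood near 0, with 1 of 27 at least 1.5-fold higher. That gene was Hmox1, haem oxygenase, at 267 and 435, while Nqo1, a classic NRF2 target, differed by 0.25 and Gsr, glutathione reductase, by -0.45.

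Cck, which encodes the peptide hormone cholecystokinin, was the fourth highest among genes with a symbol that were above background on both arrays, at 89.7 on ND-WT and 482 on DM-WT, a 5.37-fold difference. Without ICAM-1 it stood at 141 in controls and 211 with diabetes, so DM-WT was the highest and ND-WT the lowest of the 4 arrays. Cckar, one of its receptors, stood at 229.7 and 129.6. The other receptor, Cckbr, was not above background on either array, and Sct, secretin, stood at 124 and 133.

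Genes that corticosteroids induce were split. Of 15 measured, 10 were higher, 6 at least 1.5-fold and 3 at least 2-fold, with a median of 0.35, beside 0.01 without ICAM-1. Sgk1, a kinase that keeps sodium channels at the cell surface, stood at 389.9, 1104, 213 and 224. Ddit4, an inhibitor of mTORC1, stood at 57.2 and 103, with 61.6 and 61.7 without ICAM-1. Both stood highest on DM-WT. Cebpd, a transcription factor of acute responses, differed by 0.74. Yet Tsc22d3 (GILZ) and Fkbp5, direct targets of the glucocorticoid receptor, stood at -0.11 and -0.23, and Klf9, another such target, at -0.34. Bcl6, a transcriptional repressor, stood at 64.5, 167, 162 and 93.5. DM-WT was near ND-KO for this gene, and ND-WT was the lowest array.

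Immediate early genes, which respond quickly to stress and growth signals, were higher in 13 of 16 measured cases, 5 past 1.5-fold, and their median was 0.38, beside 0.08 without ICAM-1. Myc stood at 31.8 and 58.5 and Ccn1, a matrix-bound growth signal, at 206 and 353, with 286 and 227 without ICAM-1. Fos, Egr1 and 6 other members were not above background on either wild-type array. On none of the lists were Rcan1, Noct and Gem. Rcan1, an inhibitor of calcineurin, stood at 109 and 348, with 92.7 and 109 without ICAM-1. Noct (nocturnin), a rhythmic phosphatase, stood at 141 and 390.4, with 81.7 and 54.1 without ICAM-1. Gem, a small GTPase that restrains calcium channels, stood at 18.9 and 62.5 and was not measured in the other pair. The small heat shock proteins Hspb1 and Hspb8 stood at 149.9 and 302 and at 36.1 and 79.2. Hspa1a stood at 475, 741, 222 and 105, and Hspa1b at 1623, 2429, 1011 and 502. The wild-type arrays were both above the arrays without ICAM-1 for these near-identical genes, which may share signal on a probe. The constitutive chaperones Hspa8 and Hspd1 differed by -0.02 and -0.21, and the heat shock list had a median of 0.04 (-0.06 with arrays scaled by their medians).

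Of 19 endoplasmic reticulum stress genes 9 were higher and 10 lower. Asns, asparagine synthetase, and Ddit3 (CHOP), targets of the factor ATF4, differed by 1.10 and 0.90, and Atf4 itself stood at 1413 and 1870.4. Asns stood at 20.5 on ND-WT and at 37.9 on both arrays without ICAM-1, so ND-WT was the array apart. The chaperones Hspa5 (BiP) and Pdia4 stood at -0.14 and -0.50. Clock genes were mostly lower, in 10 of 13 measured cases, with a median of -0.33. Rora, a nuclear receptor of the clock loop, stood at 172.5 and 90.7, and Dbp, a clock output factor, at 906 and 633. Arntl (BMAL1), whose rhythm runs opposite to that of Dbp, stood at 22.7 and 37.8. The hour at which each kidney was taken is not given in the sources used here, and its part was not tested.

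Glucose handling genes were higher in 25 of 37 measured cases, against 2700 of all 5826 genes, and their median was 0.17 (0.065 with arrays scaled by their medians). At least 1.5-fold higher were 2 of them, against 4.19% of all genes, and 3 were at least 1.5-fold lower, against 2.54%. G6pc, the last step of glucose release, stood at 2099, 1124, 1106 and 987. ND-WT was therefore the array apart, and its value sets the difference of -0.90. Pck1, the first step of gluconeogenesis, stood at 6325 and 7104 (a difference of 0.17, and of -0.14 with arrays scaled by their medians). Fbp2, a fructose bisphosphatase, and Pfkp, a phosphofructokinase, were the 2 that were at least 1.5-fold higher, by 0.95 and 0.79. Eno1 and Pkm of glycolysis differed by 0.46 and 0.44, and Slc2a1, a glucose carrier, by -0.29. Txnip, which glucose induces, differed by 0.49. Akr1b3, aldose reductase, which turns glucose into sorbitol, stood at 778, 460, 559.5 and 750.3, with no order by diabetes. Sterol and fatty acid synthesis genes were lower in 15 of 20 cases, with a median of -0.24, and 1 of them, the desaturase Fads2, was at least 1.5-fold lower (358 and 222). Cyp51, of cholesterol synthesis, stood at -0.58, and Me1, malic enzyme, which supplies NADPH, at -0.51.

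Amino acid enzymes ranged from -1.15 to 1.98. Bhmt, which remakes methionine from homocysteine with betaine, stood at 18.1, 71.4, 20.6 and 72.3. Kynu, kynureninase of tryptophan breakdown, stood at 30.6, 78.0, 34.1 and 91.9. The diabetic arrays lay near each other for both enzymes and above the controls. Arg2, mitochondrial arginase, stood at 22.8 and 69.5, with 27.4 and 37.6 without ICAM-1. Among the 35 measured, however, 23 were lower and the median was -0.17. Bcat1, which starts the breakdown of branched-chain amino acids, stood at 73.2 and 33.0, with 98.8 and 34.5 without ICAM-1. Hpd, of tyrosine breakdown, stood at 597 on ND-WT and at 292, 295 and 295 on the other arrays, so its 2-fold difference rests on ND-WT. Ivd, of leucine breakdown, and Cbs, which begins cysteine synthesis, had log2 differences of -0.79 and -0.66.

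Androgen-dependent genes of the male kidney were all lower on DM-WT, 11 of 11 measured, with 8 at least 1.5-fold lower against 2.54% of all genes. The median was -0.75, and -0.60 without ICAM-1. Pzp, a protease inhibitor, stood at 113, 25.8, 105 and 78.4, the lowest difference of all genes at -2.13. Cyp4a12a, a fatty acid hydroxylase of males, stood at 977, 294, 1064 and 561. Kap, the kidney androgen-regulated protein, stood at 1896 and 1129.8, Odc1, ornithine decarboxylase, at 1055 and 606 and Nudt19, a coenzyme A hydrolase, at 6260 and 3734. Acsm3, a medium-chain acyl-CoA synthetase, and Cyp4b1 stood at -0.79 and -0.78. Serpina1f and Amd1 lay near the bulk of all genes, at -0.03 and -0.17. Odc1, Nudt19 and Acsm3 were as low on DM-KO, with 591, 3394 and 1306 against 1022, 6325 and 2541 on ND-KO.

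Proximal tubule markers were lower in 13 of 17 cases with a median of -0.17 (-0.14 without ICAM-1), by small amounts apart from Kap. Slc34a1, the phosphate transporter, stood at 1902 and 1481, Slc22a6, the organic anion transporter OAT1, at 1389 and 1064 and Ggt1, a brush border peptidase, at 1317 and 972. Their summed level was 33533 on ND-WT and 29773 on DM-WT, and without ICAM-1 it was 33950 in controls and 30629 with diabetes. Apical and basolateral transporters as a wider list were lower in 27 of 40 cases with a median of -0.11, and Slco3a1, an organic anion carrier, was lowest at 615 and 311. Slc15a2, a peptide transporter, stood at 197 on ND-WT and at 125, 119 and 128 on the other arrays. Of 10 thick limb and distal tubule markers 8 were higher and 2 lower, 3 at least 1.5-fold higher, with a median of 0.13 (0.039 with arrays scaled by their medians). Calb1, the calcium-binding protein calbindin, stood at 2909 and 5454, with 2262 and 3734 without ICAM-1, Pvalb, parvalbumin, at 339 and 569, and Slc12a3, the thiazide-sensitive sodium chloride transporter, at 447 and 660.0. Slc8a1, a sodium-calcium exchanger, stood at 20.0 and 43.8. Umod and Kcnj1, of the thick limb, differed by 0.14 and 0.12, and the lower ones, Egf and Cldn10, by -0.28 and -0.15. Aqp2, the collecting duct water channel, stood at 1025 and 1253, and Car2, carbonic anhydrase, at 1137 and 746. Podocyte markers (7 measured) had a median of 0.08 and none was 1.5-fold apart, and endothelial markers (14 measured) likewise had a median of 0.08 and none was.

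Matrix genes were higher in 20 of 31 measured cases, 7 past 1.5-fold, and their median was 0.20. Sparc, a collagen-binding protein, stood at 369 and 579.5, biglycan (Bgn) at 202 and 308 and decorin (Dcn) at 232 and 347. Loxl1, which cross-links elastin, stood at 44.3 and 72.5, and nidogen (Nid1) and Col4a2, of basement membranes, at 75.8 and 115 and at 46.9 and 68.5. Without ICAM-1 the same genes differed by 0.19, 0.28, 0.23, 0.31, 0.11 and 0.43. Of the list, 24 genes were not above background on either array. In TGF-beta and BMP signalling, Bmp6, a growth factor that raises hepcidin and protects tubules, stood at 143, 55.4, 132 and 168. DM-WT was the low array for it. Ccn2 (CTGF), a fibrogenic factor, stood at 499 and 712, and Acvr2b, an activin receptor, at 52.1 and 25.3. Of the renin-angiotensin list, angiotensinogen (Agt) stood at 107 and 204, with 127 and 205 without ICAM-1, and adrenomedullin (Adm), a vasodilator, at 45.9 and 93.4, with 42.7 and 41.7.

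Genes of basic cell functions lay close to 0. No cytosolic ribosomal protein of 54 measured was 1.5-fold apart, and 1 of 46 respiratory chain and ATP synthase subunits was. Their medians were 0.06 and 0.05, and turned to -0.04 and -0.05 with arrays scaled by their medians. That 1 subunit was Cox8b, a heart and muscle isoform, at 25.0 and 42.3. Markers of neighbouring tissues and of blood were measured to differing extents. Of 8 papilla and inner medulla markers with a probe 6 were measured, 4 higher and 2 lower, with a median of 0.09. Their summed level was 1113 on ND-WT and 823 on DM-WT, of which Akr1b3 was the greater part. Without Akr1b3, left out after its values were seen, the sums were 334 and 363. S100a4, of that list, stood at 55.7 and 83.8. Of 7 red cell markers 5 were measured, and Alas2, which begins haem synthesis in red cell precursors, stood at 82.1, 145, 114 and 96.8. Of 12 adipocyte markers 7 were not above background on either wild-type array, including Adipoq, Cfd, Pparg and Ucp1, while Car3 stood at 139.9 and 54.2, Lpl at 1656 and 1181 and Fabp4 at 752 and 1173. Of 7 adrenal markers, Cyp11a1, Cyp21a1, Star and Hsd3b1 were not above background on either wild-type array. Th and 1 other were measured, with a summed level of 134 on ND-WT and 141 on DM-WT. Of 10 skeletal muscle markers 7 were not above background on either, Acta1 and Ckm among them. The 2 measured had a summed level of 366 and 599, most of it from Pvalb, also a distal tubule marker. Apoa2 stood at 36.9 and 81.7 and Apoc3 at 81.6 and 213.8, both apolipoproteins of circulating particles.

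Other low genes belonged to none of the lists. Anxa13, an annexin of epithelia, stood at 60.6, 21.5, 63.8 and 35.6, and St8sia1, a ganglioside sialyltransferase, at 56.6, 19.7, 69.8 and 35.6. In both, each diabetic array was below both controls. Npm3, a nucleolar chaperone, stood at 375 and 178, Serpinf2, the plasmin inhibitor, at 518 and 254 and Azgp1, a lipid-mobilising protein, at 658 and 344. Ugt2b37, a glucuronosyltransferase, stood at 710.4 on ND-WT and at 358, 386 and 372 on the other arrays. Of 293 genes above background on ND-WT only, 9 had a bound of at least 2-fold, among them Apoh, which binds phospholipid (3.02-fold), Tgm1, a transglutaminase (2.82-fold), and Cish, which damps cytokine signals (2.04-fold). Of 157 genes above background on DM-WT only, 19 had a bound of at least 2-fold.

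The arrays of mice without ICAM-1 gave a second pair of the same contrast, and the difference between the pairs was not tested. In that pair 16 of 6047 genes (0.265%) were at least 2-fold higher and 11 (0.182%) at least 2-fold lower. Of the 75 genes at least 2-fold higher on DM-WT, 72 were measured in the second pair. Of these 64 were higher there too, 24 past 1.5-fold (1.84% of all genes of that pair were), and 13 past 2-fold. The median difference of these 72 genes was 1.18 with ICAM-1 and 0.45 without. Having been chosen for large values in the first pair, they can be smaller in any second pair. Of the 20 lower genes 19 were measured, 16 were lower, 9 past 1.5-fold (1.52% of all genes were) and 2 past 2-fold. The layouts of these genes over the 4 arrays were counted as well. The genes were chosen for a difference between DM-WT and ND-WT, which favours layouts with 1 of these arrays apart. The share of all measured genes with each layout was not counted. Both diabetic arrays stood at least 1.5-fold above both controls for 24 of the 72, among them Cyp4a14, Aldh1a1, Bhmt, Gdf15, Ephx1, Kynu and Gsta2. DM-WT stood at least 1.5-fold above all the others for 34, among them Irf7, Lgals3bp, Ifit3, Rtp4, B2m, Sgk1, Rcan1 and Noct, and some genes such as Irf7 belong to both layouts. For 11 genes, Asns and Cyp24a1 among them, ND-WT stood at least 1.5-fold below all the others. Of the 19 lower genes DM-WT stood below the others by that much for 10, including Pzp and Bmp6, and both diabetic arrays below both controls for 8, including Ces1g and Bcat1.

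**Figure D3:**
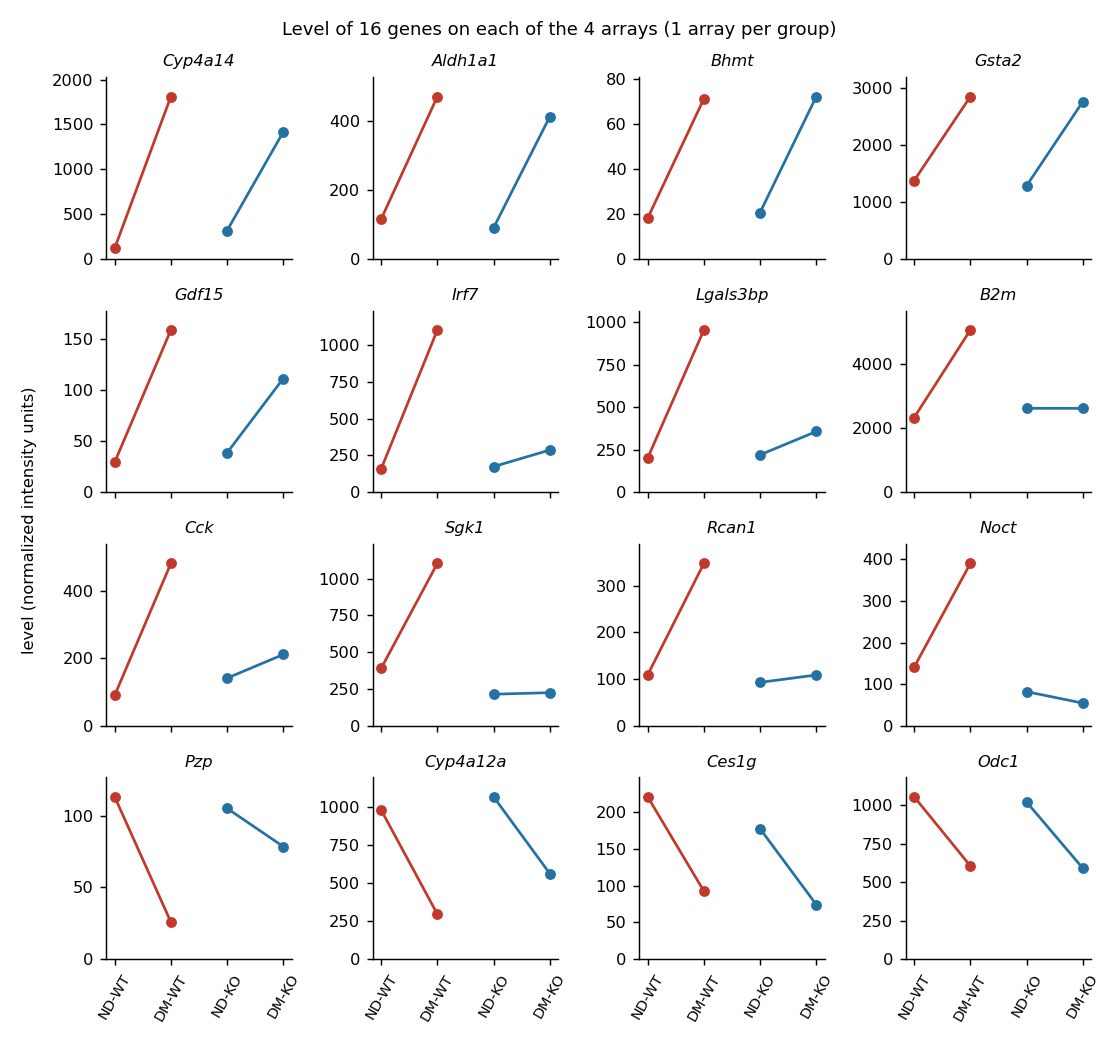
Level in normalized intensity units (vertical, linear from 0) of 16 genes on the 4 arrays, 1 array per group; lines join the nondiabetic and diabetic array of a genotype, red with and blue without ICAM-1. Cyp4a14, Aldh1a1, Bhmt and Gsta2 are high on both diabetic arrays, while Irf7, B2m, Sgk1 and Rcan1 are highest on DM-WT.

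**Figure D4:**
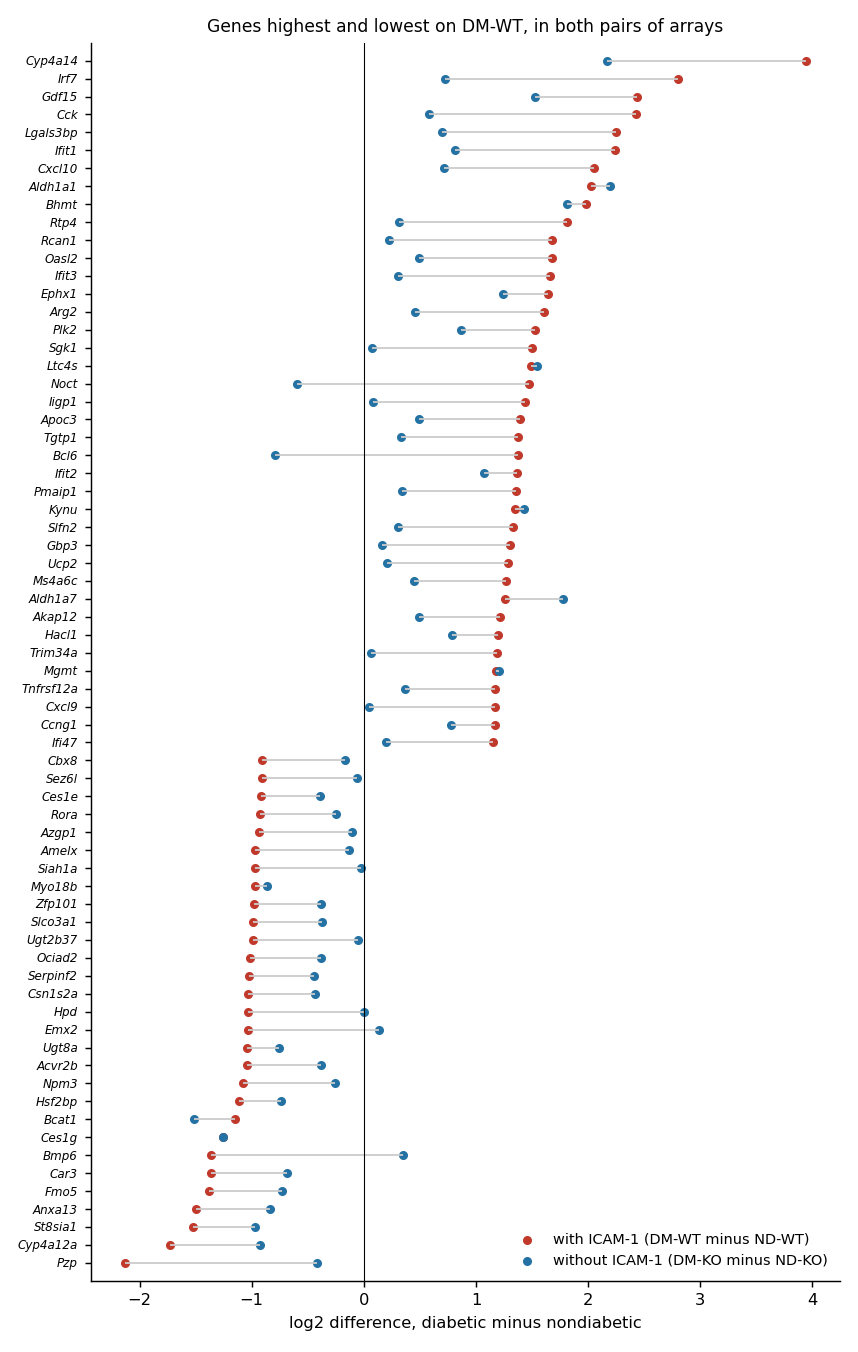
Log2 difference, diabetic minus nondiabetic (horizontal), of the 68 genes of the 40 highest and 30 lowest in the wild-type pair that were measured on all arrays; red points are the wild-type pair, blue points the pair without ICAM-1. In 63 of the 68 both points lie on the same side of 0, and the blue point mostly lies nearer to 0.

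Some of the genes at least 1.5-fold apart are neighbours on a chromosome, among them Ifit3 and Ifit1, C1qc and C1qa, Psmb8 and Tap2, and Car3 and Car2. Related genes in a cluster can share signal on a probe, so the values of Cyp4a14, Cyp4a12a, Aldh1a7, Ces1e, Ces1g, Gsta2, Tgtp1, the Ifit and Gbp genes, Ugt1a2 and Hspa1a are uncertain in that respect.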

How the data were processed

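Biotin-labelled cRNA from cortex total RNA went onto CodeLink bioarrays, 1 for each group, per the labels. The deposited scanner tables hold linear intensity, not normalized by the authors. Per the file headers they give the mean over each spot and the median of the background around it, with a mark for usable, empty and poor spots. The deposited series value table equals the difference of both divided by 1 constant per array (43.9 for ND-WT and 38.1 for DM-WT), with no centring of genes. The rule behind the constants is unknown, and its column medians were 0.926, 0.930, 0.929 and 0.930.

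The background median was subtracted from the spot mean. Poor spots and columns 44 to 48 of the upper block were left out, and the 4 arrays were quantile-normalized in limma 3.58.1 under R 4.3.3, then log2 was taken. A gene counted where its spots were usable on both wild-type arrays, and probes of a gene were averaged. A probe measured on 1 array has a bound, its level there over the dim spot's value or, if that is higher, over the lowest value of any usable spot on the dim array (16.5 on ND-WT, 16.9 on DM-WT). Of 10032 gene probes 8923 had 1 symbol from the platform's annotation and 286 through an accession, 1 had several and 822 had none. Files give no replicate, so the number of arrays limits the precision, and no statistical test was run on the comparison. The normalization and the counting of 2-fold genes were checked on simulated arrays. These had equal numbers of higher and lower genes and the same relative noise at all levels. The data had neither, so the check does not cover those features. Promoters are from RefSeq.

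Named were the 40 highest and 30 lowest genes with a symbol, at most 15 bounds per direction, up to 12 members of each of 44 lists with the largest differences plus the 3 with the highest levels, the cholecystokinin system and genes 1.5-fold apart in opposite directions in both pairs. Genes named as not above background, as neighbours, as holding an ISRE-like match or as further bounds (Fcgr1, Msr1) were chosen after their values were seen. The comparison, the gene lists and the rule were chosen with earlier results of these data known. There were 11 alternatives to these steps, listed with their effects at the end.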

Additional observations from a re-analysis of the deposited data

Results flagged for a closer look

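In 4 genes the wild-type pair and the pair without ICAM-1 differed by at least 1.5-fold in opposite directions, which was not tested, since each pair holds 1 array a side. Noct, a rhythmic phosphatase, differed by 1.47 with ICAM-1 and by -0.60 without. Bcl6, a transcriptional repressor, differed by 1.37 and -0.79. Hspa1a, an inducible heat shock protein, differed by 0.64 and -1.07, and its near-identical copy Hspa1b by 0.58 and -1.01, so these are not separate results. Adcy6, an adenylate cyclase of the vasopressin pathway, differed by -0.87 and 0.68, with levels of 140.5, 76.9, 96.0 and 154 on the arrays in the order used before.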

How the results depend on the processing

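No paired analysis was possible because each group has 1 array and no replicate number is shared, and for the same reason no replicate could be left out. Of 22 counts of 2-fold genes under 11 alternatives 17 stayed within 1.5 times. Of 5117 values of single genes 4779 moved by less than the spot error of 0.173. Settings that only change which genes or spots are counted can hardly move a gene with 1 probe. Of the 338 values that moved further, 156 came from normexp and 153 from no background subtraction, where 320 and 323 stayed. Of 440 list medians 25, from 13 lists, changed sign, 7 of them under median scaling, and each of these lay within 0.181 of 0 in the report's setting. The median of conjugation enzymes, for 1, went from 0.065 to -0.064 under median scaling. With an offset of 50 after normexp correction, which compresses dim genes, 26 genes were at least 2-fold higher and 2 lower, and with no background subtraction also 26 and 2. With edge spots kept, 31 were lower. Medians under normexp were 0.60 for interferon-induced genes, 0.39 for p53 targets, 0.38 for tubule injury, 0.25 for macrophage markers and -0.14 for clock genes. With no background subtraction they were 0.62 for interferon-induced genes, 0.36 for tubule injury and 0.27 for macrophage markers. With no filter on dim probes MHC class II stood at 0.067, macrophage markers at 0.40, clock genes at -0.11 and smooth muscle markers at 0.037. With at least 50 units on the brighter array, p53 targets stood at 0.79, complement at 0.091 (-0.13 in the report's setting) and adipocyte markers at -0.16. Adipocyte markers, 5 genes at 0.17 otherwise, stood at -0.14 under median scaling, -0.020 under cyclic loess and -0.12 in the series value table. The lymphocyte median reversed from 0.18 to -0.041 among genes usable on all arrays, where fewer genes are counted. Genes near the lowest usable level of 16.5 to 16.9 units, among them Bhmt, Cxcl9 and Gem, have the widest spread.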
